A study of Saccharomyces cerevisiae with 8 samples.

Results

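The comparison described here sets RNA-seq libraries of a MUB1 deletion strain of Saccharomyces cerevisiae, budding yeast, beside libraries labelled wild type in medium with 0 µg/ml of the cell wall dye Calcofluor white (CFW). It covers all genes and uses 4 of the 8 libraries of the series, 2 of each genotype, chosen by their labelled genotype and dye concentration. Both groups were exponential cultures kept for 5 hours in chemically defined medium, and the labels name strain BMA41 for the wild type and call the mub1 strain its derivative. The marker genes described below go against a single strain background for both genotypes, so the names wild type and mub1 are used here only as the labels give them. The other 4 libraries, the same genotypes with 20 µg/ml CFW, serve below as a second pair of groups that shares no library with this one. The labels give neither the marker used for the deletion nor the number of clones, and nothing in them says that replicates were separate cultures, so p-values reflect the spread among these libraries and nothing more.

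Mub1 is an adaptor of the ubiquitin ligase Ubr2, which works with the conjugating enzyme Rad6. Rpn4, which activates the proteasome genes, is the target for which they are best known. A ubiquitin ligase of this kind controls protein levels, so a transcript can change through a factor whose own mRNA does not. Calcofluor white attaches to wall chitin and interferes with wall assembly, and the groups described here are those in which this stress was not applied.

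With edgeR's quasi-likelihood F test and p-values adjusted by Benjamini and Hochberg's method (threshold 0.05), 2554 of 5954 tested genes (42.9%) differed between the genotypes, 1316 higher (22.1%) and 1238 lower (20.8%) in mub1. Most of these differences were small. The median absolute log2 fold change among the called genes was 0.481, and 1646 of them (64.4%) were under 1.5-fold, while 278 (4.67% of the tested genes) were at least 2-fold, 196 higher (3.29%) and 82 lower (1.38%). At least 8-fold, 21 genes rose and 13 fell. Both mub1 libraries lay above both wild-type libraries in 2250 genes (37.8%) and below both in 2363 (39.7%), so a lack of overlap was common in this comparison. The count of called genes depended on single libraries, at 1697 without wild-type library 1, 1440 without wild-type library 2, 1529 without mub1 library 1 and 1860 without mub1 library 2, whereas the count of at least 2-fold differences stayed between 241 and 280.

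The 4 libraries held 24147195 to 26794467 counts. By counting error alone, a gene with a count of 0 could still have stood at 0.112 to 0.124 CPM in them, where CPM is a count divided by library size. The component that parted the genotypes held 86% of the variance of their log2 levels. The median absolute log2 difference between replicates was 0.0726 in the wild type and 0.0852 in mub1, over genes averaging at least 10 CPM in that genotype. From here on, levels are CPM after normalization by trimmed means (TMM) and differences are log2 fold changes, mub1 minus wild type, ± SE, with n = 2 libraries per group. The median difference over all tested genes was -0.01.

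**Figure D1:**
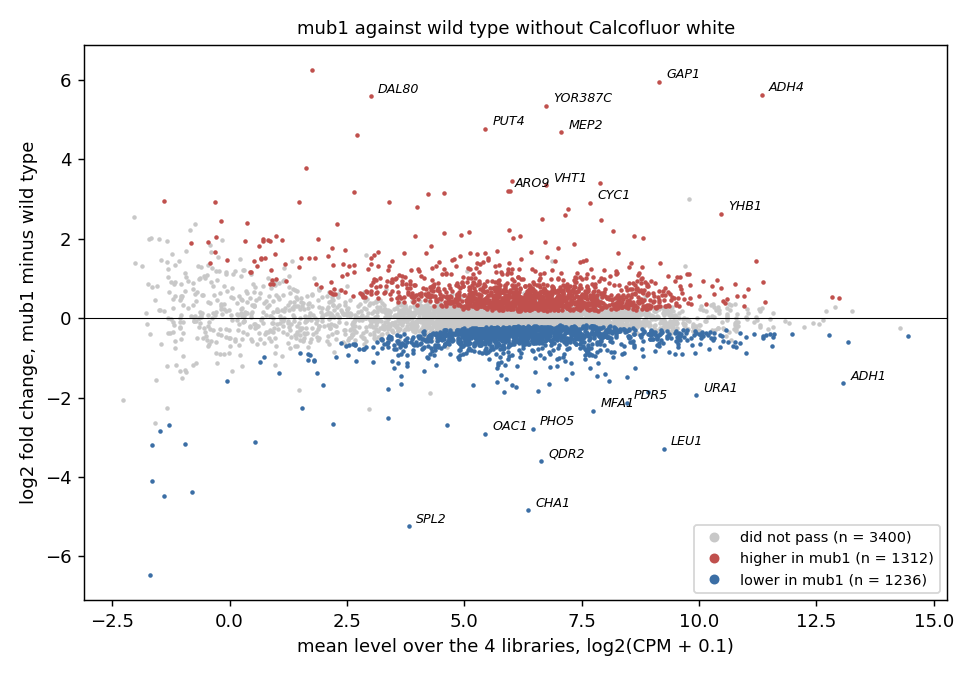
Log2 fold change (mub1 minus wild type, vertical axis) against the mean level over the 4 libraries (log2 of CPM + 0.1, horizontal axis), 1 point per tested gene, red where higher and blue where lower in mub1 at an adjusted p under 0.05. Of the tested genes, 6 whose fold change is larger than 7 on the log2 scale are not drawn, among them MUB1, LEU2, URA3, MET17 and TRP1. GAP1 and ADH4 stand out above, SPL2 and CHA1 below.

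The libraries differed in more than MUB1. In the wild-type libraries, MUB1 (chromosome XIII, 466300 to 468162, build R64) had 1068 and 1066 counts, and in mub1 it had 1 and 0. LEU2, an enzyme of leucine synthesis (chromosome III, 91324 to 92418), had 1 and 1 counts in the wild type against 4933 and 6421 in mub1. URA3, the last enzyme of uridine monophosphate synthesis (chromosome V, 116167 to 116970), had 1 and 0 against 5950 and 6222. MET17, which joins sulfide to homoserine in sulfur assimilation (chromosome XII, 732542 to 733876), had 1 and 0 against 2621 and 2748. These enzymes are often deleted in laboratory strains as selection markers, and here each was near 0 in the libraries labelled wild type. TRP1, of tryptophan synthesis (chromosome IV, 461842 to 462516), was the reverse case, since the wild type held 989 and 935 counts and both mub1 libraries held 0.

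Scaled to library totals, the level was 5705.0 times higher in mub1 for LEU2 (exact 95% counting interval 1578.9 to 47113.9), 12232.1 times for URA3 (2195.0 to 483180.5) and 5395.5 times for MET17 (968.0 to 213150.1). MUB1 was 2123.5 times higher in the wild type (380.7 to 83913.3), and TRP1 was at least 638.2-fold lower in mub1, taking 3 counts for the group as the floor. These were all the genes, 5 in number, with at most 3 counts over one genotype and at least 50 in each library of the other. As background, BMA41 is generally described as a W303 derivative that lacks TRP1, while whole-gene deletions of LEU2, URA3 and MET17 are those of another common strain background, the BY series. MUB1 itself follows the labels in all 4 libraries. Besides MUB1, the 2 groups thus differed in these marker genes, in both directions. Which strain each group was, and whether a strain name in the labels is wrong, cannot be told from these counts. The effects of the MUB1 deletion and of these marker genes, or of any other difference between the strains, cannot be told apart in any result that follows.

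**Figure D2:**
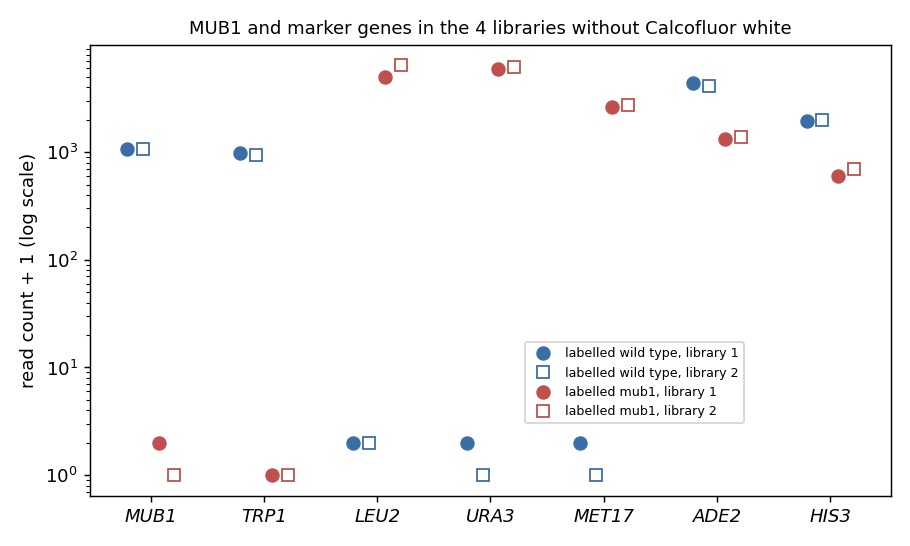
Read counts + 1 (log axis) of MUB1 and 6 marker genes in each of the 4 libraries without CFW, filled circles for library 1 and open squares for library 2 of each genotype. MUB1 and TRP1 are at or near 0 in the mub1 libraries, LEU2, URA3 and MET17 at or near 0 in the wild-type libraries, and ADE2 and HIS3 are lower but present in mub1.

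Other genes in which laboratory strains often differ were also compared. ADE2, of purine synthesis, stood at 171 and 167 CPM in the wild type and at 54.6 and 52 in mub1 (-1.66 ± 0.07). HIS3, of histidine synthesis, fell from 75.9 and 80.5 CPM to 24.5 and 26.5 (-1.62 ± 0.09). CAN1, the arginine permease, rose by 0.66 ± 0.07 and LYS2, of lysine synthesis, by 0.73 ± 0.09. The mRNA of none of these genes was absent from either genotype, though an inactive allele can still be transcribed. HAP1, the heme-responsive transcription factor that carries a transposon in S288C strains, fell from 186 and 190.0 CPM to 116 and 109 (-0.74 ± 0.08). SSD1, an RNA-binding protein of cell wall translation, rose by 0.40 ± 0.10. Its call was lost without wild-type library 2 or mub1 library 1, with edgeR adjusted p up to 0.0967. AMN1, of daughter cell separation, was at -0.13 ± 0.09 and did not pass the test.

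Genes beside the missing ones, looked at after their values were seen, mostly kept their level. The neighbours of MUB1 were at -0.15 ± 0.07 (YMR099C) and 0.57 ± 0.28 (SRT1), those of TRP1 at -0.03 ± 0.08 (SOK1) and -0.23 ± 0.11 (GAL3), and those of LEU2 at -0.41 ± 0.21 (YCL021W-A) and 0.15 ± 0.07 (NFS1), none past the threshold. Beside URA3, GEA2 fell by 0.32 ± 0.09 and TIM9 rose from 10.3 and 9.17 CPM to 19.2 and 18.2 (0.95 ± 0.18). Beside MET17, ACO1, the aconitase of the citric acid cycle, rose from 502 and 516 CPM to 1138 and 938 (1.03 ± 0.11). No chromosome stood apart as a whole, since the medians of the 16 chromosomes lay between -0.075 and 0.063. Within 30 kb of a chromosome end, 137 of 305 tested genes (44.9%) were called, close to the 44.2% elsewhere, but 14.43% changed at least 2-fold against 4.01% elsewhere. Of the at least 2-fold changes, 36 of 44 near the ends were higher in mub1, beside 150 of 217 elsewhere.

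Among called genes averaging at least 10 CPM, the largest differences beyond the marker genes fell into a small number of metabolic systems. Higher in mub1 were permeases and enzymes for poor nitrogen sources, genes of biotin uptake and synthesis, genes that zinc shortage is known to induce, and ARO9, of aromatic amino acid breakdown. Lower were LEU1 and OAC1 of leucine synthesis, URA1 of pyrimidine synthesis, genes of the phosphate regulon, CHA1, the drug exporters QDR2 and PDR5, and MFA1 of a-type mating cells. YLL053C, a reading frame with no role given here, rose from 4.05 and 5.48 to 37.3 and 47.4 CPM (3.15 ± 0.36). In each of the genes of the plot by library, both mub1 libraries lay beyond both wild-type libraries, as the rule for choosing them required.

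**Figure D3:**
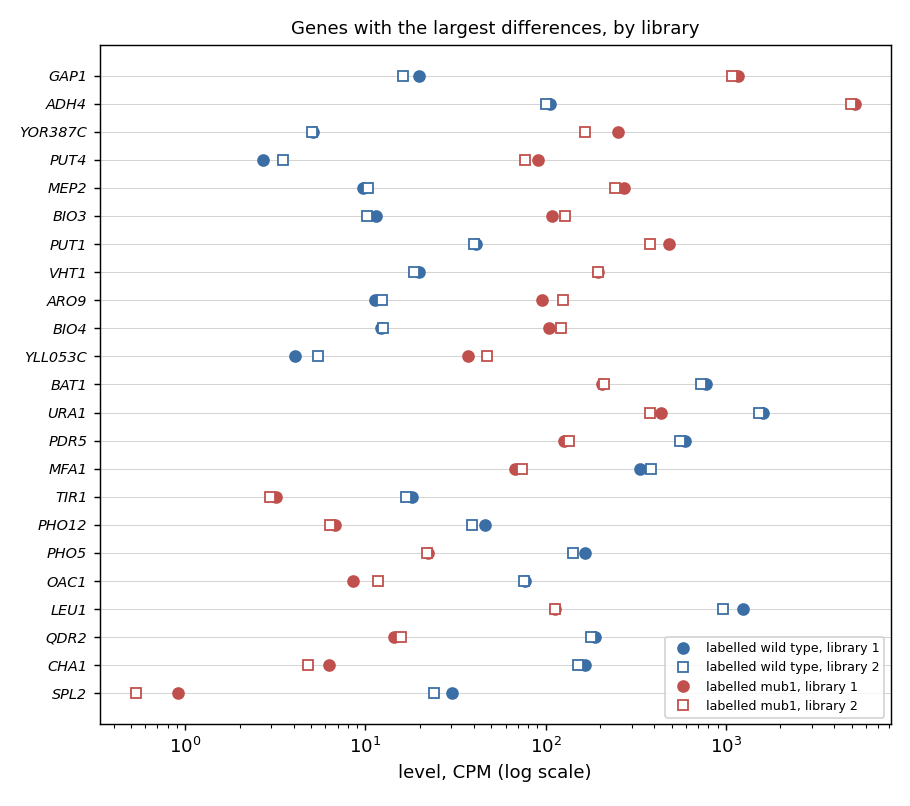
Level in CPM (log axis) in each of the 4 libraries for the 23 genes, besides MUB1 and the 4 marker genes, with the largest increases and decreases among called genes of at least 10 CPM on average, in order of fold change. Blue marks the wild type and red mub1. The replicates of a genotype sit close together beside the distance between genotypes, with the widest gap in GAP1 at the top.

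Nitrogen catabolite repression is the shut-down of genes for the use of poor nitrogen sources while a good one is at hand. The GATA activators Gln3 and Gat1 drive these genes and the GATA repressor Dal80 restrains them, all through the sequence GATAAG. Of the 26 tested genes of this system 23 rose, 0 fell and 3 did not pass, with a median of 1.05, and 13 rose at least 2-fold. Without any 1 library, 21 or 22 of the 26 rose. Stretches upstream of the start codon of 3 of the genes that rose are shown because they hold several copies of GATAAG close together, which capitals mark as GATAAG or, on the other strand, CTTATC (build R64, plus strand, GAP1 at chrXI:514710-514785, MEP2 at chrXIV:356967-357036 and DAL80 at chrXI:506579-506648).
GAP1: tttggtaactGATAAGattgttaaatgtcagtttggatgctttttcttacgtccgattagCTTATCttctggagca
MEP2: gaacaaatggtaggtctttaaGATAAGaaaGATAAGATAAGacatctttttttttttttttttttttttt
DAL80: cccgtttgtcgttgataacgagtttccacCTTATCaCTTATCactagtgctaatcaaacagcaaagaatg
GATAAG on either strand stood in the 500 bases before the start codon of 20 of the 26 genes (76.9%), against 22.8% of 5711 genes, and 16 of the 26 had 2 or more copies, against 3.48%. A match describes the letters only, and PUT4, which rose as well, had none in this window.

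GAP1, the general amino acid permease, changed most among these genes. It was at 19.8 and 16.2 CPM in the wild type and at 1160.4 and 1075 in mub1 (5.96 ± 0.14). MEP2, the high-affinity ammonium permease, rose from 9.67 and 10.3 to 271 and 243 CPM (4.69 ± 0.13). Its relative MEP1 rose less, from 56.6 and 59.5 to 215 and 183 CPM (1.78 ± 0.09). All these permeases were thus low in both wild-type libraries and high in both mub1 libraries. PUT4, the proline permease, rose from 2.69 and 3.49 to 90.9 and 77.1 CPM (4.76 ± 0.29), and PUT1, the proline oxidase of mitochondria, from 41.1 and 39.9 to 486 and 377 CPM (3.41 ± 0.35). DAL3, of allantoin breakdown, rose by 2.80 ± 0.16 and OPT2, an oligopeptide transporter, by 2.51 ± 0.12. Among the regulators, DAL80 went from 0.312 and 0.325 CPM to 16.2 and 14.9 (5.59 ± 0.29), although an overlapping reading frame, YKR032W, may share its reads. GAT1 rose from 26.2 and 21.8 to 64.1 and 68.4 CPM (1.47 ± 0.13). GLN3 overlapped between the genotypes, at 61.1 and 63.9 against 65.3 and 63.8 CPM (0.05 ± 0.07), and did not pass.

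**Figure D4:**
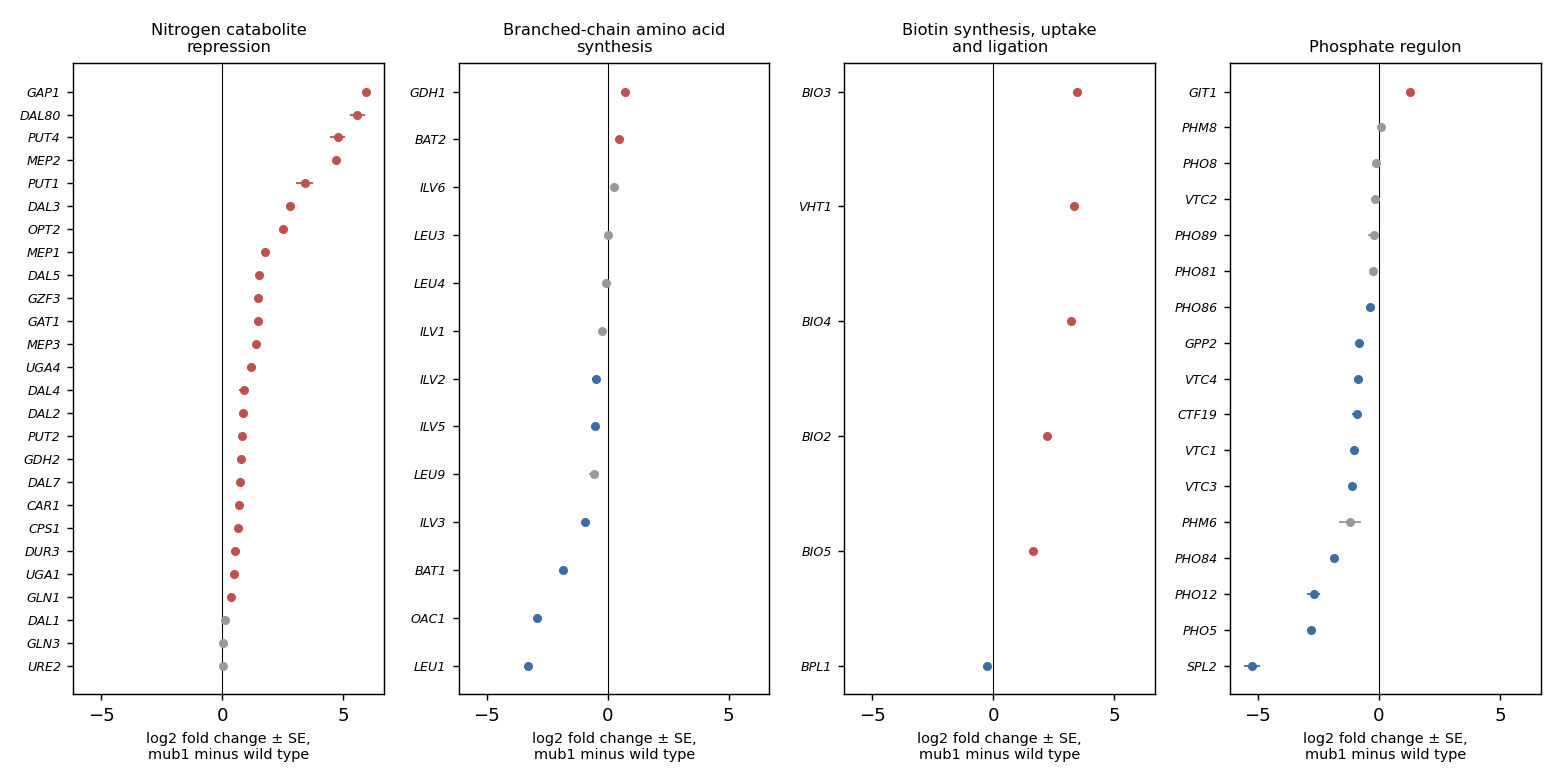
Log2 fold change ± SE (mub1 minus wild type, horizontal axis) of each tested gene of 4 groups, 1 row per gene, red where it rose, blue where it fell and grey where it did not pass the test. In the nitrogen panel 23 of 26 genes are red and 0 blue, in the phosphate panel 10 of 17 are blue, and 5 of the 6 biotin genes are red.

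Amino acid permeases as a whole were divided, with 9 of 20 higher and 5 lower (median 0.15), and the 5 that fell were 2 without any 1 of the 4 libraries. AGP1, a broad amino acid permease induced by external amino acids, rose from 182 and 169 to 731 and 700.1 CPM (2.03 ± 0.09). PTR2, the peptide transporter, rose from 47.6 and 40.6 to 162 and 173 CPM (1.93 ± 0.14). MUP1, the methionine permease, fell from 95.8 and 95.9 to 47 and 50.5 CPM (-0.98 ± 0.12). Directions thus differed among these permeases, while 22.1% of all tested genes rose and 20.8% fell. GAP1, PUT4 and UGA4 belong to both this list and the nitrogen list.

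Leucine synthesis is the pathway of LEU2, and its other genes are controlled by Leu3, an activator that needs the intermediate made by the first enzyme. Of 13 tested genes of branched-chain amino acid synthesis, LEU2 left out, 6 fell, 2 rose and 5 did not pass (median -0.49), and 1 rose without wild-type library 1. The upstream stretches of LEU1 and BAT1 hold the site of Leu3, CCGG, 2 free bases and CCGG again, in capitals (LEU1 at chrVII:478830-478899, minus strand, BAT1 at chrVIII:517355-517424, plus strand).
LEU1: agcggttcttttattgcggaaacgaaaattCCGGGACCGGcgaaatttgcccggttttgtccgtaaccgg
BAT1: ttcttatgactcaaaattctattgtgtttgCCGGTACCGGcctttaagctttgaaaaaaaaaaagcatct
The motif, which reads the same on both strands, stood within 500 bases of the start codon in 5 of these 13 genes (38.5%) and in 0.28% of all genes. LEU1, which follows the first enzyme of the pathway, fell from 1240.3 and 968 to 113 and 113 CPM (-3.29 ± 0.14). OAC1, a mitochondrial carrier that exports the leucine precursor, fell from 77.2 and 75.9 to 8.5 and 11.7 CPM (-2.92 ± 0.18) and had no match in the window. BAT1, the mitochondrial aminotransferase of the pathway, fell from 777 and 731 to 205 and 212 CPM (-1.86 ± 0.12). These genes were lower in the libraries in which LEU2 mRNA was present. Read counts do not show whether an mRNA encodes a working enzyme, here or for URA3. GDH1, the glutamate dehydrogenase of nitrogen assimilation, whose window also holds the motif, rose by 0.70 ± 0.13. LEU3 itself was at 70.3 and 74.2 against 68.7 and 77.5 CPM (0.02 ± 0.08) and did not pass.

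Genes of pyrimidine synthesis, the pathway of URA3, were divided. Of 11 tested, URA3 left out, 5 fell, 2 rose and 4 did not pass (median -0.29), and with CFW 3 fell and 3 rose (median 0.11). Of these 11, 3 fell without wild-type library 1, wild-type library 2 or mub1 library 1, and 1 rose without wild-type library 2 or either mub1 library. URA1, dihydroorotate dehydrogenase, fell from 1604 and 1522 to 434 and 377 CPM (-1.95 ± 0.13), and URA4, dihydroorotase, from 398 and 416 to 136 and 135 CPM (-1.59 ± 0.10). Both are known to be induced when pyrimidine precursors build up. Of the pathway of TRP1, by contrast, 0 of 12 aromatic amino acid genes fell and only ARO3, of the first step, rose (0.53 ± 0.10, edgeR adjusted p = 0.00327). Fitted to the 4 libraries alone, 4 of the 12 fell. Of 27 genes of methionine and sulfur metabolism, the pathway of MET17, which was left out, 13 fell and 5 rose (median -0.19), and 9 or 10 fell without any 1 library while 3 rose without wild-type library 2 or mub1 library 1. SAM1, S-adenosylmethionine synthetase, fell from 374 and 367 to 148 and 132 CPM (-1.40 ± 0.14) and CYS3, of cysteine synthesis, by 0.89 ± 0.08.

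Among other amino acid pathways, serine and threonine use fell and arginine synthesis rose. CHA1, the deaminase that lets cells use serine and threonine as nitrogen sources, fell from 166 and 152 to 6.27 and 4.83 CPM (-4.84 ± 0.12), whereas its activator CHA4 was slightly higher (0.28 ± 0.08, a call lost without wild-type library 2 or mub1 library 1, edgeR adjusted p up to 0.133). Of the 12 genes of serine and threonine breakdown and folate-linked carbon transfer 9 fell and 1 rose (median -0.47), and 6 to 8 fell without any 1 library. SHM2, the cytosolic serine hydroxymethyltransferase, fell from 337 and 325 to 139 and 102 CPM (-1.46 ± 0.16), and GCV2 (-1.17 ± 0.11) and GCV3 (-1.09 ± 0.09) of the glycine cleavage system fell with it. Of 9 genes of homoserine, threonine and serine synthesis 6 fell, 1 rose and 2 did not pass (median -0.45), and 4 fell without wild-type library 2 or mub1 library 1. The 1 that rose was SER3, of the first step of serine synthesis, from 72 and 74.5 to 403 and 408 CPM (2.47 ± 0.15).

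Of 14 arginine genes 10 rose and 0 fell (median 0.70), also without any 1 library. ARG8 rose from 42 and 40.3 to 128 and 134 CPM (1.67 ± 0.08), ARG3 by 1.39 ± 0.18 and ARG1 by 1.29 ± 0.13. Asparagine synthetase ASN1 rose by 1.40 ± 0.10 and GCN4, the activator of amino acid synthesis, by 0.50 ± 0.10. GCN4 is controlled mainly through translation, which mRNA levels do not show. Lysine synthesis had 4 of 9 genes higher and 0 lower, with 2 or 3 higher without any 1 library.

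ARO9 and ARO10, which begin the breakdown of aromatic amino acids to fusel alcohols, rose from 11.3 and 12.4 to 95.7 and 124 CPM (3.21 ± 0.13) and from 37.1 and 43.4 to 212 and 277 CPM (2.61 ± 0.13). Their activator ARO80 was at 66.5 and 65.8 against 67.9 and 68.3 CPM (0.04 ± 0.10) and did not pass. BNA2, the first enzyme of the route from tryptophan to NAD, rose from 11.8 and 11.4 to 51.2 and 47.8 CPM (2.09 ± 0.11). The lists that hold these 3 genes were divided, beside 22.1% of all tested genes that rose and 20.8% that fell. Of 13 genes of the Ehrlich pathway, the breakdown of amino acids to fusel alcohols, 3 rose, 3 fell and 7 did not pass (median 0.04), and 2 rose without wild-type library 1. Of 12 genes of the route from tryptophan to NAD 5 rose and 4 fell (median 0.12), while 3 rose without mub1 library 2, and 1, 2, 1 and 2 fell without wild-type library 1, wild-type library 2, mub1 library 1 and mub1 library 2.

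Biotin is a vitamin that yeast takes up or makes from precursors. All 5 genes of its uptake and synthesis rose, and with the ligase BPL1 the 6 genes had a median of 2.70. BIO3 rose from 11.4 and 10.1 to 108 and 128 CPM (3.45 ± 0.17), its neighbour BIO4 from 12.2 and 12.5 to 104 and 122 CPM (3.19 ± 0.13), and VHT1, the biotin importer, from 19.8 and 18.5 to 195 and 195 CPM (3.35 ± 0.09). BIO2, biotin synthase, rose by 2.21 ± 0.16 and BIO5, a precursor importer, by 1.65 ± 0.11. None of these 5 genes overlapped between the genotypes, which also held for 77.5% of all tested genes. BPL1 fell by 0.26 ± 0.09, a call lost without mub1 library 1 or either wild-type library (edgeR adjusted p up to 0.28). For thiamine, another vitamin, 9 of 18 genes rose and 3 fell (median 0.57), and the 3 fell to 0, 0, 0 and 2 without wild-type library 1, wild-type library 2, mub1 library 1 and mub1 library 2. The transporter THI7 rose from 25.4 and 23.4 to 71.2 and 86.6 CPM (1.69 ± 0.11).

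Genes known to respond to zinc shortage included some of the largest differences. ADH4, an alcohol dehydrogenase induced when zinc is low, stood at 105 and 100.1 CPM in the wild type and at 5173 and 4942 in mub1 (5.62 ± 1.06). Its replicates were close, but the standard error rests on a spread shared with the libraries with CFW, where ADH4 was at 122 and 893 CPM in mub1. Its edgeR adjusted p ran from 1.33e-15, fitted to the 4 libraries without CFW alone, to 0.0706, without wild-type library 2, and the call was lost without mub1 library 1 or either wild-type library. YOR387C, of unknown function, rose from 5.11 and 5.07 to 251 and 166 CPM (5.35 ± 0.20), and its close copy VEL1, with which it may share reads, by 1.67 ± 0.17. ZAP1, the zinc-responsive activator, rose from 15.4 and 13.2 to 30.4 and 20.1 CPM (0.82 ± 0.20), a call lost without wild-type library 2 or mub1 library 1 (edgeR adjusted p up to 0.0742). ADH1, the main alcohol dehydrogenase and a zinc enzyme, fell from 12706 and 13499 to 3393 and 4998 CPM (-1.64 ± 0.19), and ADH3, its mitochondrial relative, by 0.86 ± 0.11. Of the 15 genes of the zinc list 7 rose and 3 fell (median 0.44). The site of Zap1 was searched as ACCTT, 1 free base and AAGGT. It stood within 500 bases of the start codon in 1 of the 15 (6.7%) and in 0.16% of all genes. The 1 was ZRT1 (1.32), which did not pass the test, and the windows of ADH4, YOR387C and ZAP1 held no match. Without any 1 library 1 fell, and 5, 4, 4 and 7 rose without wild-type library 1, wild-type library 2, mub1 library 1 and mub1 library 2. CTR1, the high-affinity copper importer, rose from 36.7 and 39.3 to 295 and 220 CPM (2.76 ± 0.13), and the reductase FRE1 by 1.12 ± 0.10, while of 26 genes of the iron regulon 13 rose and 4 fell (median 0.35), 8 rose without wild-type library 2 and 2 fell without wild-type library 1. ISU2, a scaffold for iron-sulfur clusters, fell by 1.65 ± 0.13 and FIT3, a cell wall protein of iron retention, by 1.02 ± 0.11.

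The phosphate regulon is driven by Pho4, which enters the nucleus when phosphate is short and binds CACGTG. Of its 17 tested genes 10 fell, 1 rose and 6 did not pass (median -0.85), and 9 to 11 fell without any 1 library. The upstream stretches of 3 of the genes that fell show the motif in capitals (minus strand, PHO84 at chrXIII:26188-26257, PHO5 at chrII:431167-431236 and SPL2 at chrVIII:375175-375257).
PHO84: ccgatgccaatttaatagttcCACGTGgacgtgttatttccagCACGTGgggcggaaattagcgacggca
PHO5: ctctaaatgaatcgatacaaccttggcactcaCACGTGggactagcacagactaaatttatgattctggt
SPL2: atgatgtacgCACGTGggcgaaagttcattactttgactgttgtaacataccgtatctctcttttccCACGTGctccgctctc
CACGTG, which reads the same on both strands, stood within 500 bases of the start codon in 14 of the 17 genes (82.4%) and in 6.27% of all genes. SPL2, which restrains low-affinity phosphate uptake, fell from 30.3 and 24.2 to 0.908 and 0.532 CPM (-5.24 ± 0.32). PHO5, the secreted acid phosphatase, fell from 164 and 142 to 22.2 and 21.9 CPM (-2.79 ± 0.18), and PHO84, the high-affinity importer, from 90.1 and 89.3 to 26.4 and 23.3 CPM (-1.85 ± 0.09). VTC1 (-1.02 ± 0.08) and VTC4 (-0.85 ± 0.09), subunits of the polyphosphate polymerase, fell less. PHO4 itself fell from 27.4 and 25.4 to 14.5 and 15.7 CPM (-0.80 ± 0.11), so here the factor and its targets were low in the same libraries. PHO12 (-2.69 ± 0.28) has a near-identical copy, PHO11, with which its reads may be shared.

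Respiration genes were higher in mub1. Among 37 respiratory chain and ATP synthase genes, 36 rose and 0 fell (median 0.74), and 32 to 36 rose without any 1 library. CYC1, which encodes cytochrome c, rose from 46 and 49.9 to 392 and 329.6 CPM (2.91 ± 0.10), and RIP1, of the cytochrome bc complex, by 1.29 ± 0.13. Of 71 mitochondrial ribosomal proteins 66 rose and 0 fell (median 0.57). Hap1, introduced above, activates a number of respiratory and sterol genes. Of 9 such targets 7 rose and 0 fell (median 0.90), although the mRNA of HAP1 was lower in mub1. The site of Hap1, searched as CGG, 3 free bases, TA, 1 free base and CGG on both strands, stood in 0 of these 9 windows of 500 bases and in 0.37% of all, which says nothing about binding of the factor there. YHB1, which detoxifies nitric oxide, rose from 376 and 412 to 2599.6 and 2287 CPM (2.63 ± 0.21), and CYB2, the lactate dehydrogenase of mitochondria, from 164 and 135 to 664 and 599 CPM (2.08 ± 0.19).

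Genes that cells switch on when oxygen is short went the other way or were divided, with 6 of 14 lower and 2 higher (median -0.16). Of all tested genes, 20.8% were lower and 22.1% higher. The wall protein TIR1 fell from 18.1 and 16.8 to 3.18 and 2.96 CPM (-2.51 ± 0.23), and ANB1 (-1.34 ± 0.26) and AAC3 (-1.09 ± 0.20), the hypoxic forms of a translation factor and of the ADP/ATP carrier, fell as well. OLE1, the fatty acid desaturase, rose by 1.11 ± 0.15. Among glucose transporters, HXT6 rose from 1252 and 1312 to 3650.3 and 3253 CPM (1.43 ± 0.17), although it may share reads with the near-identical HXT7. The low-affinity transporters HXT1 (-0.99 ± 0.14) and HXT3 (-0.73 ± 0.12) fell. Of 11 genes of gluconeogenesis and the glyoxylate cycle 5 rose and 0 fell (median 0.75), and 3, 2, 3 and 5 rose without wild-type library 1, wild-type library 2, mub1 library 1 and mub1 library 2. The lactate importer JEN1 rose from 73.2 and 64.5 to 327 and 180.0 CPM (1.88 ± 0.40), a call lost without either wild-type library (edgeR adjusted p up to 0.062) and in a fit to the 4 libraries alone (0.0765 in the same test).

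Genes of protein synthesis differed by small amounts. Of 137 cytosolic ribosomal protein genes 55 fell and 5 rose (median -0.30). This count rested on single libraries, since 26, 10, 11 and 22 fell and 2, 3, 4 and 3 rose without wild-type library 1, wild-type library 2, mub1 library 1 and mub1 library 2. Of all genes tested, 636 of 6006 fell without wild-type library 2 and 669 of 6001 without mub1 library 1, a larger share than the 10 and 11 of 137. Of 70 genes of ribosome biogenesis 15 fell and 5 rose (median -0.18), beside 20.8% of all genes that fell, and 15, 3, 8 and 3 fell and 2, 4, 2 and 6 rose without the same libraries in the same order. Of 21 subunits of RNA polymerases I and III, which transcribe ribosomal and transfer RNA, 10 fell and 1 rose (median -0.31), and 5 fell without wild-type library 2. RPC37 fell from 57 and 66.5 to 29.8 and 30.4 CPM (-1.04 ± 0.11) and RPA135 from 264 and 286 to 141 and 149.8 CPM (-0.92 ± 0.16). Of 24 cytosolic chaperones 12 fell and 1 rose (median -0.38), but 2, 1, 1 and 9 fell without the same libraries in the same order. The chaperone that rose, HSP30 (0.74), lost its call without wild-type library 2 or mub1 library 2. Of 19 genes of the vacuolar proton pump 14 fell and 1 rose (median -0.29), and 6, 4, 4 and 8 fell without them. The pump gene that rose, STV1 (0.32), lost its call without wild-type library 2 or mub1 library 1.

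The proteasome is where the known target of the ligase acts. RPN4 was at 272 and 267 CPM in the wild type and 378 and 327 in mub1 (0.38 ± 0.11), a call lost without mub1 library 1 or either wild-type library (edgeR adjusted p up to 0.155). Of the 19 subunits of the regulatory particle 8 rose and 0 fell (median 0.18), which became 1, 0, 0 and 2 without wild-type library 1, wild-type library 2, mub1 library 1 and mub1 library 2. Of the 14 subunits of the core particle 2 rose and 0 fell (median 0.10), and 1 rose without either wild-type library or mub1 library 2. The largest difference among the 33 subunits was PRE4, at 286 and 282 against 359.5 and 373 CPM (0.37 ± 0.07), so the whole complex differed little in mRNA without CFW. In the libraries with CFW, 14 of the 19 regulatory subunits (median 0.32) and 12 of the 14 core subunits (median 0.29) were higher in mub1. There 0 fell in either particle, and 18.6% of all genes were higher, beside 22.1% of all genes without CFW. The Rpn4 site GGTGGCAAA, on either strand, stood within 500 bases of the start codon in 15 of the 19 regulatory genes (78.9%) and in 1.72% of all genes. UBR2 rose by 0.25 ± 0.07, a call lost without any 1 library (edgeR adjusted p up to 0.108), and RAD6 was at -0.07 ± 0.07 and did not pass. UBI4, the stress-induced polyubiquitin gene, rose from 908 and 902 to 1591 and 1570.4 CPM (0.80 ± 0.11).

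Pdr1 and Pdr3 are factors that control drug exporters such as PDR5. Among the genes listed here for drug resistance, whether or not under these factors, the largest differences were falls. Over all tested genes, 20.8% fell and 22.1% rose. Of 24 genes of pleiotropic drug resistance 8 fell and 4 rose (median -0.14), and the 8 became 5 without mub1 library 1, while the 4 became 2 without mub1 library 1 or wild-type library 2. QDR2, an exporter of drugs and cations, fell from 189 and 179 to 14.4 and 15.8 CPM (-3.60 ± 0.09). PDR5, the main drug efflux pump, fell from 594 and 555 to 127 and 134 CPM (-2.14 ± 0.13), and PDR15, its close relative, by 0.70 ± 0.10. PDR1 overlapped between the genotypes (0.00 ± 0.09, edgeR adjusted p = 0.978), and PDR3 fell by 0.39 ± 0.11, a call lost without mub1 library 1 or either wild-type library. A stretch upstream of PDR5 holds TCCGCGGA, the site of both factors, which reads the same on both strands (capitals, chrXV:619340-619409, plus strand).
PDR5: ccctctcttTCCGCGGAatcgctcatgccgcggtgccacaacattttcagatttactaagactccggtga
This motif stood in 5 of the 24 windows (20.8%) and in 0.61% of all, and QDR2 was not among those 5.

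Mating genes followed the a type in both genotypes, at a lower level in mub1. The summed level of 7 genes that mark a cells was 1452.55 and 1718.78 CPM in the wild type and 632.5 and 737.19 in mub1, and all 7 fell (median -0.98). The summed level of 4 genes that mark alpha cells was 61.62 and 64.13 CPM against 52.31 and 47.57. Of these 4, 1 rose, at least 2-fold, 1 fell and 2 did not pass (median -0.30). The 1 that rose, the alpha pheromone gene MF(ALPHA)1, was between 0.546 and 2.81 CPM in every library. It lost its call without wild-type library 1 or mub1 library 2. In bulk RNA, fewer cells of a type and less RNA per cell cannot be told apart. MFA1, a precursor of the a pheromone, fell from 333 and 384 to 67.9 and 73.6 CPM (-2.34 ± 0.19). Of 21 genes of the pheromone response 11 fell and 2 rose (median -0.44), while 7 fell and 0 rose without wild-type library 2. AGA1, the anchor of the a agglutinin, fell from 79.5 and 116 to 31.1 and 29.9 CPM (-1.68 ± 0.18) and the activator STE12 from 35.7 and 43.5 to 17.7 and 20.8 CPM (-1.04 ± 0.13).

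Cell wall genes showed no common direction without the dye, where 22.1% of all tested genes rose and 20.8% fell. Rlm1 is the factor at the end of the wall integrity kinase cascade, and of its 28 tested target genes 6 were higher, 5 were lower and 17 did not pass (median 0.07), while 3 rose without wild-type library 2 and 3 fell without wild-type library 1 or mub1 library 1. PRM5 fell from 158 and 157 to 66.5 and 68.9 CPM (-1.22 ± 0.10), CIS3, a wall mannoprotein, by 0.78 ± 0.13, and the protease YPS1 rose by 0.60 ± 0.11. Of 17 genes of chitin synthesis and remodelling 3 rose and 4 fell (median 0.00), and 1 rose without either wild-type library and 2 fell without mub1 library 1. Among cell cycle genes, the G1 cyclins moved in opposite directions, CLN3 from 38.3 and 38.8 to 98 and 83.8 CPM (1.24 ± 0.09) and CLN2 from 73.2 and 71.8 to 41.8 and 44.5 CPM (-0.75 ± 0.07).

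**Figure D5:**
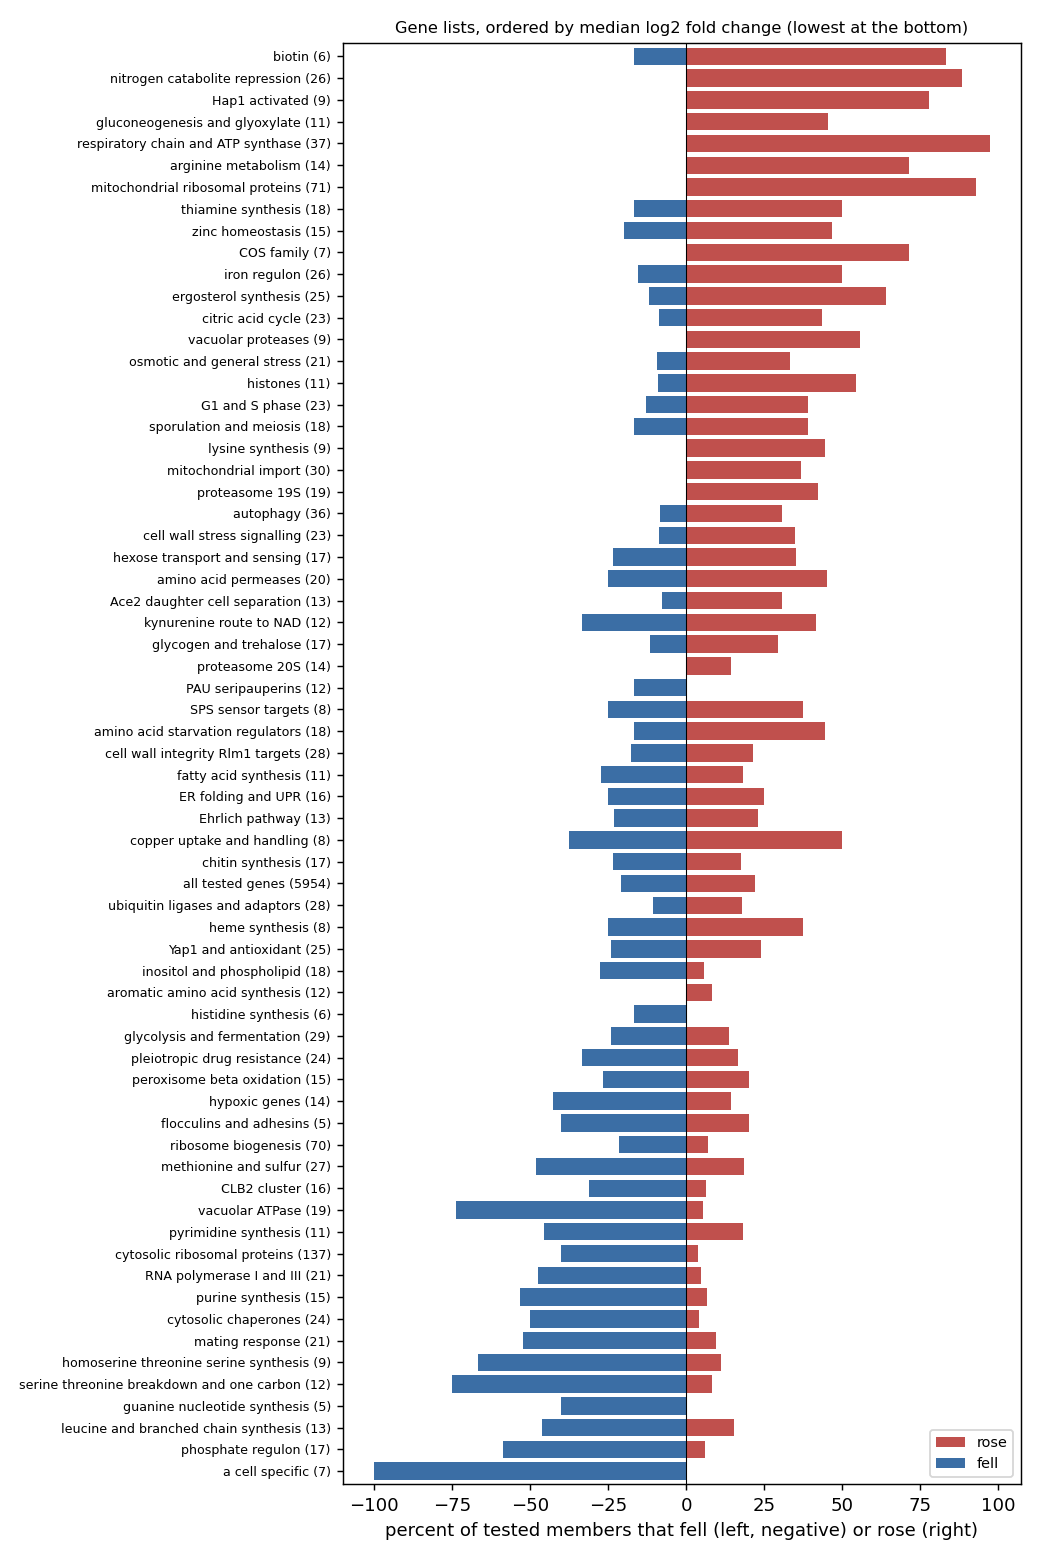
Percent of the tested genes of each list that rose (right, red) or fell (left, blue, drawn as negative), with the number of tested genes in brackets and the lists in order of their median log2 fold change. The lists of biotin and of nitrogen catabolite repression are at the top, those of a cells and of the phosphate regulon at the bottom, and all tested genes, with 22.1% higher and 20.8% lower, lie between.

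The same contrast with 20 µg/ml CFW, measured in 4 other libraries, called 2138 genes (35.9%), 1110 higher (18.6%) and 1028 lower (17.3%). Of the 1316 genes that rose without CFW 746 rose with it (56.7% of the first set and 67.2% of the second), and 16 fell. Of the 1238 that fell 602 fell again (48.6% and 58.6%), and 11 rose. Among the genes with differences of at least 2-fold, 135 of 196 rose again (68.9%), 64 of 82 fell again (78.0%) and 0 turned. The marker genes part these libraries in the same way, so the repeat does not separate their part from that of MUB1.

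A test of the interaction found 149 of 5954 tested genes whose genotype difference was not the same in the 2 media. Of the 26 nitrogen genes 20 were higher with CFW (median 0.78), with GAP1 at 5.32 ± 0.14. All 5 biotin genes that had risen were among the 149. With CFW, BIO3 was at 14.5 and 21.2 CPM in the wild type and 23 and 23.7 in mub1 (0.39 ± 0.16), and VHT1 at 21 and 23.7 against 36.8 and 35.5 (0.69 ± 0.08). The difference of differences was -3.06 ± 0.23 for BIO3 (edgeR adjusted p = 0.000326) and -2.65 ± 0.12 for VHT1 (9.52e-06 in the same test). YOR387C likewise stood at 6.92 and 6.43 against 8.72 and 9.2 CPM with CFW, a difference of differences of -4.93 ± 0.28 (edgeR adjusted p = 4.47e-05). ADH1 was at 10811 and 10077 CPM in the wild type and 8306 and 7191 in mub1 with CFW, and its difference moved by 1.21 ± 0.26 (edgeR adjusted p = 0.0478). LEU1, URA1 and CYC1 moved by 0.24 ± 0.19, 0.11 ± 0.17 and 0.03 ± 0.13, none past the threshold of the same test.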

How the data were processed

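RNA-seq counts of 8 libraries were used, 4 of them in the comparison described. Per the labels' protocols, polyadenylated RNA was made into stranded libraries and sequenced in pairs. Per the submitters' processing notes, FastQC 0.12.1, HISAT2 2.2.1, featureCounts 2.0.3 and build R64 were used. The deposited values are whole-number read counts per gene that the authors had not normalized. The strand setting and the handling of reads with several alignments are not given in the sources used here, so values of near-identical copies (HXT6 and HXT7, PHO11 and PHO12, histones) and of overlapping genes are uncertain.

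The fit used R 4.3.3 and edgeR 4.0.16. Of 6534 identifiers, filterByExpr kept 5954, with 99.997% of the counts. TMM factors were 0.9793 to 1.003 in the 4 libraries. All 8 libraries entered 1 robust quasi-likelihood fit (glmQLFit, glmQLFTest) with a mean for each of 4 groups and 4 residual degrees of freedom, and the Benjamini-Hochberg adjustment ran over all tested genes (threshold 0.05). A standard error (SE) is the size of a log2 fold change over the root of its F statistic. Counting intervals are exact 95% binomial (Clopper-Pearson). They and the floor of 3 counts cover counting error alone, because PCR duplicates of a molecule are counted as if independent. Symbols, coordinates and upstream sequence (500 bases before the start codon, both strands searched) came from RefSeq's R64 genome and annotation, which matched 5864 identifiers.

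The members and the 67 gene lists were chosen with earlier results of these data known. A list is described by its counts and median beside those of all tested genes. Named are the 14 largest increases and 14 largest decreases among called genes averaging 10 CPM or more in the 4 libraries with no overlap, MUB1, its partners, marker genes and regulators, genes near 0 in one genotype, and from each list the 6 genes or fewer of lowest p. The neighbours of the missing genes, YKR032W, PHO11 and ZRT1 were named after their values were seen. In simulated counts of this comparison (5929 genes) the fit recovered 78% of 50 genes changed by 0.5 on the log2 scale, 96% at 1 and 100% at 2, and called 12 unchanged genes. Alternatives were DESeq2 1.42.0, upper-quartile scaling, library totals, other filters, a fit to 4 libraries, a replicate block, each library left out, the marker genes left out and a 2-fold threshold.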

Additional observations from a re-analysis of the deposited data

Results flagged for a closer look

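For 9 of the 28 genes named by size, the difference between mub1 and wild type was not the same with 20 µg/ml CFW as without it, by the interaction term of the edgeR fit. Over all 5954 tested genes this held for 149. The 28 were chosen for a large difference without CFW, which the interaction term subtracts, so the choice itself favours a smaller difference with CFW. Values are the difference with CFW minus the difference without, log2 ± SE. They were negative for YOR387C (-4.93 ± 0.28, adjusted p = 4.47e-05), BIO4 (-3.1 ± 0.17, adjusted p = 3.82e-05), BIO3 (-3.06 ± 0.23, adjusted p = 0.000326), VHT1 (-2.65 ± 0.12, adjusted p = 9.52e-06) and PUT4 (-2.58 ± 0.38, adjusted p = 0.0181), all of them risers whose rise was smaller with CFW. PHO5 (-1.2 ± 0.24, adjusted p = 0.0411) had a larger difference with CFW, where the wild type stood at 472 and 334 CPM, against 164 and 142 without it, and mub1 at 28.7 and 21.9 CPM, against 22.2 and 21.9. They were positive for CHA1 (2.43 ± 0.15, adjusted p = 4.64e-05), PDR5 (0.83 ± 0.17, adjusted p = 0.0454) and QDR2 (0.66 ± 0.12, adjusted p = 0.0244), whose falls were smaller with CFW. In each medium both mub1 libraries lay on the same side of both wild-type libraries in 8 of the 9 genes, and BIO4 overlapped with CFW. The cause was not tested.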

How the results depend on the processing

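Of 2554 genes called, 278 passed with the added 2-fold threshold. Leaving out 1 of the 4 libraries gave 1440 to 1860 calls, 804 to 1015 of them higher and 636 to 845 lower, and 241 to 280 at least 2-fold. Fewer samples estimate the spread there, and the lone library of a genotype is assumed to vary like the other groups. The other alternatives gave 2376 (replicate block) to 3181 calls (4 libraries alone), and every call shared with the 2554 kept its direction. Upper-quartile scaling turned the split to 1209 higher and 1428 lower. The replicate numbers are not shown to pair samples: with only 2 of them, deviations from the group means correlated at 0.101 between the genotypes without CFW, and the block gave 1229 higher and 1147 lower. Of 363 named genes called, 265 kept the call in all alternatives and 0 turned. Genes with few counts, such as MF(ALPHA)1, are limited by depth.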

Other observations

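Other gene groups differed in the same 4 libraries. The standard histone genes HTA1 and HTB1, which lie side by side, stood at 563 and 549 against 1053 and 913 CPM (0.82 ± 0.11) and at 507 and 489 against 1015 and 878 CPM (0.93 ± 0.11). Of 11 histone genes 6 rose and 1 fell (median 0.25), with 4 or 5 higher without any 1 library. The gene that fell, CSE4, which marks centromeres, lost its call without wild-type library 2 or either mub1 library. Histone genes have close copies, so their reads may be shared. Of 9 genes listed as vacuolar proteases 5 rose and 0 fell, but the list and the 5 include YPS1, a protease of the wall genes above. PRB1 rose most, from 587 and 542 to 1235 and 1189 CPM (1.10 ± 0.13). ATG39, a receptor for the breakdown of nuclear envelope, rose by 1.41 ± 0.22. In the antioxidant group, OYE3, an NADPH oxidoreductase, rose from 11.5 and 13.2 to 63.3 and 49 CPM (2.18 ± 0.28), while the peroxidase GPX2 fell from 54.9 and 55.7 to 16.4 and 17.7 CPM (-1.69 ± 0.15). The sodium pump gene ENA1 rose from 1.72 and 1.14 to 6.32 and 5.13 CPM (2.00 ± 0.30), although its close copies in the same cluster may share its reads.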
